A study of Homo sapiens with 6 samples.

Results

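The 3'UTR clusters are the PAR-CLIP sites that the authors' tables place in the 3' untranslated region of an mRNA, taken by the location column of the cluster tables of 5 libraries. They numbered 88888 of the 1717084 clusters in these tables. G20 held 2829 of 38817 clusters, G35 held 2712 of 68049, G45 held 1797 of 57710, HuR replicate 1 held 6348 of 39351 and HuR replicate 2 held 75202 of 1513157. The Total table gives no location. Its 17601 clusters of 200602 that shared at least 1 bp on the same strand with any of the 88888 were therefore set beside them. Of these, 95.85% overlapped a 3'UTR cluster of HuR replicate 2. The letters, conversions and positions of the Total clusters below therefore depend on this choice. As a check of the label, the cluster midpoint lay in a 3'UTR of GENCODE release 44 for 96.7% to 98.5% of the clusters in each of the 5 libraries.

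All libraries came from HEK293, a human embryonic kidney line, grown with the uridine analog 4SU at 100 uM, irradiated at 365 nm and digested with RNase T1. The background libraries G20, G35 and G45 came from cells with doxycycline-inducible GFP, immunoprecipitated with the FLAG M2 antibody and cut from the gel at about 20, 35 and 45 kDa, with 1 library per slice. The HuR libraries were 2 replicates from cells with doxycycline-inducible HuR, precipitated with the same antibody. Total was a single library of lysate RNA without precipitation, digested with proteinase K and depleted of rRNA with RiboZero. The labels do not say that the endogenous HuR was removed in any line, nor that the replicates came from separate cultures, so p-values measure only the spread between these samples. The 3 slices served as 1 group of background, and their differences count as its spread.

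The 3'UTR follows the stop codon and carries many of the elements that set how long an mRNA lasts, where it goes and how much it is translated. HuR, encoded by ELAVL1, binds U-rich and AU-rich stretches there and in introns, and is known for stabilizing short-lived mRNAs. In PAR-CLIP, a 4SU base crosslinked to protein is read as C instead of T in the cDNA, and RNase T1 cuts after G. PARalyzer groups are sites with any read, and clusters are the sites in which it found conversions. A conversion location is a T position with T-to-C reads, and a conversion event is 1 such reading.

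Representative clusters of at most 30 nt are shown because they carry the letters counted in the motif comparison. They were the clusters with the most reads that held the motif, had 2 or more conversion locations and at least 10 Total reads, and lay outside the sites found in all 5 libraries. The sequences are those of the tables, on the RNA strand, and every one was identical to GRCh37 (hg19) at its coordinates. The first 4 came from HuR replicate 1, were also clusters in HuR replicate 2 and had no read in any slice. Capitals mark TTTTT and ATTTA, the DNA letters of UUUUU and AUUUA.
HNRNPA2B1, chr7:26230848-26230868, minus strand: tcATTTActtaaattattttg
HNRNPC, chr14:21678128-21678152, minus strand: ttacacATTTAttttactctaaatg
ARPP19, chr15:52843028-52843049, minus strand: aacTTTTTacttccacactcag
PFN2, chr3:149683504-149683533, minus strand: catcattccttcactcttctcTTTTTcccg
The first lies in the mRNA of an hnRNP that packages and splices pre-mRNA, and held 29 reads with 29 conversion events in HuR replicate 1, 461 reads in HuR replicate 2 and 15 in Total. The HNRNPC site, in the mRNA of another hnRNP, held 28, 729 and 51 reads in the same order. The ARPP19 site, in the mRNA of a phosphatase inhibitor of mitosis, held 28, 185 and 85 reads. The PFN2 site, in the mRNA of the actin-binding profilin 2, held 28, 75 and 30 reads.

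The other printed clusters came from the slices. They too were chosen by motif, so their contrast with the first 4 was fixed by the choice. The next is from G45 with the same capitals, and the last 3 are from G20 with runs of 4 or more G in capitals.
RPRD2, chr1:150447160-150447186, plus strand: ctttactacaaTTTTTTTTTaATTTAg
ERH, chr14:69846907-69846927, minus strand: atGGGGtGGGGGGtggaaatg
EIF4A1, chr17:7481831-7481859, plus strand: ccagggctcaatctctGGGGGctgaggag
MARCKSL1, chr1:32799604-32799625, minus strand: ctttGGGGtGGGGGGaggtctg
The RPRD2 site, in the mRNA of a protein that binds the RNA polymerase II tail, held 37 reads in G45, 14 in G35, 8 in G20, 4 in HuR replicate 1 and 310 in HuR replicate 2. The 3 G-rich sites had reads in all 5 libraries, and these counts are raw, so they also differ with depth. The ERH site held 135 reads in G20, 6 in G35, 14 in G45, 6 in HuR replicate 1 and 460 in HuR replicate 2, with 22 conversion events among the 135 reads of G20. The EIF4A1 cluster, in the mRNA of a translation initiation helicase, had 5 events in 120 reads of G20. The MARCKSL1 cluster had 10 events in 78.

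The 3'UTR took a larger share of mRNA reads in both HuR libraries than in any slice. By the group tables and GENCODE, 3'UTR reads were 22.8% (G20), 29.9% (G35) and 33.6% (G45) of the reads in 3'UTR, coding and 5'UTR exons of the slices. The share was 41.9% in HuR replicate 1, 84.2% in HuR replicate 2 and 26.4% in Total. The HuR mean was 63.0% ± 29.9 (SD, n = 2) against 28.8% ± 5.47 (n = 3), so the groups did not overlap, and the exact permutation test, two-sided, gave p = 0.2. That is the smallest p that 2 libraries against 3 can give, so no comparison of library values here can reach 0.05. Each coding read came with 0.357, 0.459 and 0.554 reads in the 3'UTR in the slices by rising size, with 0.871 and 7.15 in the HuR replicates and with 0.395 in Total. The HuR replicates thus differed from each other more than HuR replicate 1 from G45. Without the 10 gene regions with the most reads of each library, HuR replicate 1 stood at 57.9% and the slices at 24.0% to 43.0%.

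By number of clusters, the order was different. The 3'UTR share of clusters was 7.29% in G20 (95% Wilson interval 7.03% to 7.55%), 3.99% in G35 (3.84% to 4.13%), 3.11% in G45 (2.98% to 3.26%), 16.1% in HuR replicate 1 (15.8% to 16.5%) and 4.97% in HuR replicate 2 (4.93% to 5.01%). HuR replicate 2 lay between the slices, and the means of 10.6% ± 7.89 (SD, n = 2) and 4.80% ± 2.20 (n = 3) differed by less than the spread (exact permutation test, two-sided, p = 0.4). Without HuR replicate 1 the difference fell from 5.75 to 0.174 percentage points. HuR replicate 1 lists only clusters with 2 or more conversion locations, unlike the other libraries. Among clusters with at least 5 reads and 2 conversion locations, the shares were 8.99% (G20), 4.84% (G35), 4.18% (G45), 16.1% (HuR replicate 1) and 6.45% (HuR replicate 2). For comparison, intron clusters were 58.0% and 59.5% of all clusters in HuR replicates 1 and 2 and 15.2% to 27.4% in the slices. Coding clusters numbered 9309 in G20, 4339 in G35 and 2654 in G45, more than the 3'UTR clusters of each slice, whereas HuR replicates 1 and 2 had 365 and 19310, fewer than theirs. The intervals cover counting error only, since the reads carried no molecular identifiers.

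**Figure D1:**
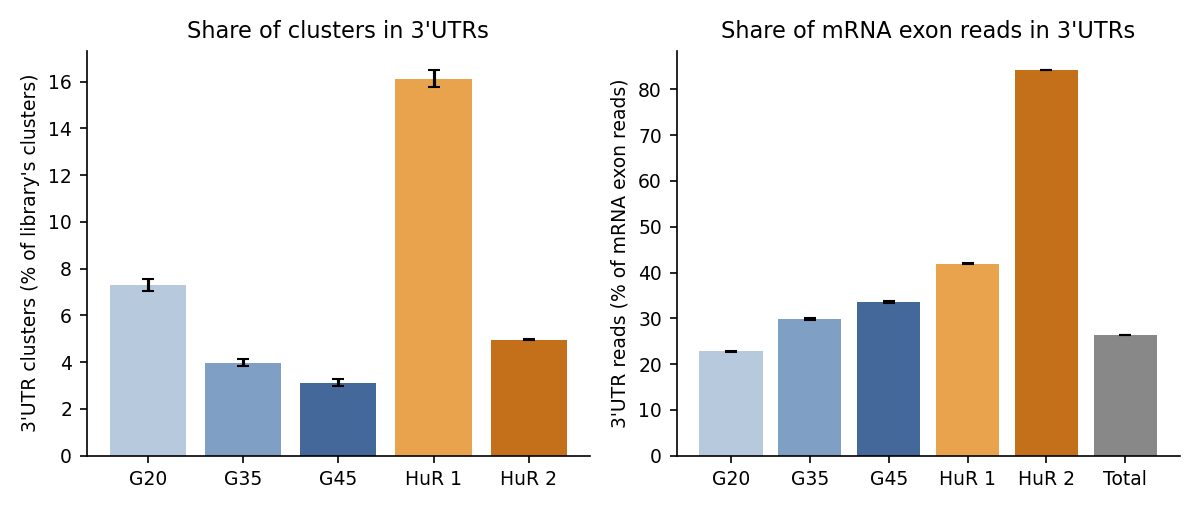
Left, 3'UTR clusters as a percentage of each library's clusters, where HuR replicate 1 lists only clusters with 2 or more conversion locations. Right, 3'UTR reads as a percentage of mRNA exon reads, with Total added. Bars are single libraries and error bars are 95% Wilson intervals. On the right both HuR libraries, at 41.9% and 84.2%, stand above all slices and Total, and on the left HuR replicate 2, at 4.97%, stands between G35 and G20.

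The clusters were short and mostly shallow. Their median length was 25 nt in G20, 26 nt in G35 and G45, 22 nt in HuR replicate 1 and 24 nt in HuR replicate 2, and their median read count was 9, 7, 7, 7 and 11 in that order. Reads were unevenly spread. The 10 clusters with the most reads held 24.6% of the 3'UTR cluster reads of G20, 45.7% in G35, 53.0% in G45, 19.3% in HuR replicate 1 and 2.14% in HuR replicate 2.

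The letters of the clusters ran from G-rich in the smallest slice to U-rich in the largest, and the HuR clusters were U-rich. Mean T content was 25.1% in G20, 35.7% in G35, 43.1% in G45, 41.7% in HuR replicate 1, 39.0% in HuR replicate 2 and 36.8% in Total. G45 lay above both HuR libraries, and HuR exceeded the slices by 5.73 percentage points with overlapping groups (exact permutation test, two-sided, p = 0.6). Mean G content was 35.8%, 21.9% and 16.5% in the slices by rising size, 11.8% and 15.9% in HuR replicates 1 and 2 and 9.30% in Total. Here the HuR libraries were below all slices (mean difference -10.9 percentage points, exact permutation test, two-sided, p = 0.2). Weighted by reads, T content was 38.6% and 42.0% in the HuR replicates and 23.3% to 33.5% in the slices, which did not overlap.

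Among the slices, the U-rich motifs rose and GGGG fell with size. Motifs were counted on the RNA strand in windows of 41 nt centred on each cluster. UUUUU was in 11.3% of the windows of G20, 28.1% of G35, 43.1% of G45, 33.2% of HuR replicate 1, 29.2% of HuR replicate 2 and 22.7% of Total, against 12.2% of 982864 windows that tile all annotated 3'UTRs. G20 was near the tiles, and the other libraries were 1.86 to 3.53 times above them. The lowest ratio is that of Total, whose clusters were picked by overlap with PAR-CLIP clusters, so its motif shares depend on that choice. AUUUA, the core of AU-rich elements, was in 3.54%, 9.88% and 14.9% of the windows of G20, G35 and G45, in 13.5% and 12.8% of those of HuR, in 15.0% of those of Total, and in 7.57% of the tiles. Neither motif separated HuR from the slices (exact permutation test, two-sided, p = 0.8 and p = 0.6). Without G20, the UUUUU difference turned from 3.69 to -4.42 percentage points. GGGG was in 46.2% of the windows of G20, 20.1% of G35 and 15.5% of G45, but in 9.45% and 9.996% of those of HuR, close to 10.3% of the tiles. The longer UUUUUUU, which overlaps UUUUU, was in 3.82%, 10.6% and 18.4% of the windows of G20, G35 and G45 and in 7.59% and 7.06% of those of HuR. The nonamer core UAUUUAU, which overlaps AUUUA, was in 0.742%, 1.88% and 3.84% of the windows of the slices, and in 2.47% and 2.18% of those of HuR. For both longer motifs HuR lay between the slices.

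**Figure D2:**
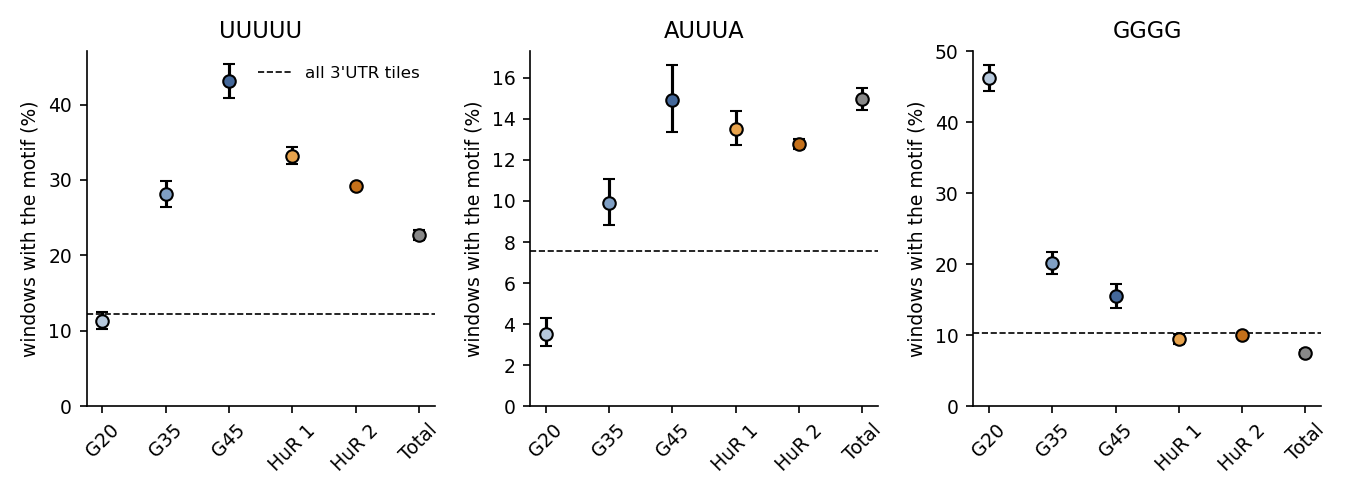
Share of 41-nt windows on 3'UTR clusters that hold UUUUU (left), the AUUUA pentamer (middle) or a run of GGGG (right), in percent, by library. Points are single libraries with 95% Wilson intervals, and the dashed line is the share among all 3'UTR tiles. UUUUU rises from 11.3% in G20 to 43.1% in G45 with HuR in between, and GGGG falls from 46.2% in G20 to 9.45% in HuR replicate 1.

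Set beside coding clusters of the same library, the 3'UTR clusters were richer in T in 5 of 5 libraries, by 6.63 to 19.3 percentage points (exact sign-flip permutation test, p = 0.0625, the smallest that 5 libraries allow). UUUUU windows were more frequent by 10.6 to 40.0 percentage points and AUUUA windows by 2.89 to 12.4, again in 5 of 5. The annotated regions differ in the same direction, since the tiles held 29.8% T in 3'UTRs and 21.9% in coding sequence. Against intron clusters, T content was higher in the 3'UTR in 3 of 5 libraries, so the 3'UTR clusters did not stand apart from introns in T. UUUUU windows were more frequent than in introns in 4 of 5 libraries, by 3.05 to 20.9 percentage points, and less frequent in HuR replicate 2 (-3.74). AUUUA windows were more frequent in 3 of 5. GGGG windows were more frequent than in introns in 5 of 5, by 0.774 to 17.6 percentage points.

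Summed over reads, conversions were more frequent in the 3'UTR clusters of the 5 PAR-CLIP libraries than in Total, with G20 the nearest to it. There were 43.0 conversion events per 100 reads in G20, 89.3 in G35, 73.1 in G45, 87.6 in HuR replicate 1, 101 in HuR replicate 2 and 23.1 in Total. G35 lay above HuR replicate 1, and the group means of 94.5 ± 9.68 (SD, n = 2) and 68.4 ± 23.5 (n = 3) did not differ beyond the spread (exact permutation test, two-sided, p = 0.4). Counted per reading of a T, 8.65% were converted in G20, 12.8% in G35, 9.96% in G45, 10.4% in HuR replicate 1, 9.94% in HuR replicate 2 and 3.201% in Total. The median cluster had 25 events per 100 reads in both G20 and Total and 100 in the other 4 libraries, and without its 10 clusters with the most reads G20 fell to 29.4. Per T reading the HuR and slice means were 10.2% and 10.5% (exact permutation test, two-sided, p = 1.0). Events per 100 reads were higher in 3'UTR than in coding clusters in 5 of 5 libraries, by 19.6 to 81.6, whereas per T reading only 3 of 5 were higher, and the median cluster was higher in only 2 of 5. Against intron clusters, the percentage of T readings converted was lower in the 3'UTR in 5 of 5 libraries, with differences of -0.373 to -6.49 percentage points (exact sign-flip permutation test, p = 0.0625). The gap of 81.6 was in HuR replicate 1, where the 10 coding clusters with the most reads held 96.3% of the coding cluster reads.

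Clusters with 2 or more conversion locations made up 41.6% of the 3'UTR clusters of G20, 31.0% of G35, 34.9% of G45, 66.6% of HuR replicate 2 and 100% of HuR replicate 1. The table of HuR replicate 1 holds no cluster with a single location in any region, so its value reflects what the table lists. The study defines clusters by at least 5 reads and 2 locations, and 1178, 840, 627, 6348 and 50053 of the 3'UTR clusters of G20, G35, G45 and HuR replicates 1 and 2 met that definition.

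Along the 3'UTR, clusters were denser near the stop codon than near the annotated end in every library. The first 20% of the 3'UTR length held 28.8% of the placed clusters of G20, 28.1% of G35, 27.8% of G45, 25.4% of HuR replicate 1, 23.8% of HuR replicate 2 and 25.9% of Total, where an even spread would give 20%. The last 20% held 13.3%, 14.6%, 14.2%, 12.5%, 16.5% and 14.7% in the same order. The longest annotated 3'UTR at each site was used, so a shorter isoform in these cells also lowers the share at the end. The slices and HuR differed at the stop codon itself. The first 100 nt held 11% of the clusters of G20, 6.66% of G35 and 6.34% of G45, but 2.90% and 3.56% of HuR replicates 1 and 2. The 3'UTRs with clusters were also shorter in G20, with a median over clusters of 1856 nt, against 2724 nt in G35, 2808 nt in G45, 3169 nt in HuR replicate 1 and 3182 nt in HuR replicate 2.

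**Figure D3:**
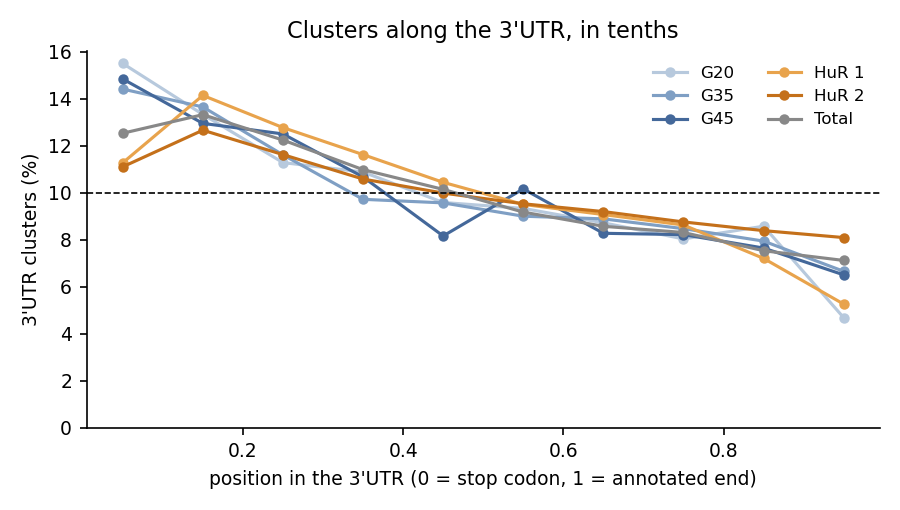
Percentage of each library's 3'UTR clusters in each of 10 equal bins of the 3'UTR, from the stop codon at 0 to the annotated end at 1. Lines are libraries, and the dashed line is an even spread. In all 6 libraries the lines fall towards the annotated end, and the slices start above the HuR replicates.

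The clusters of HuR replicate 1 were nearly all found again in HuR replicate 2. Of its 6348 clusters, 5835 (91.9%, 91.2% to 92.6%) overlapped a 3'UTR cluster of HuR replicate 2, and in the other direction 5586 of 75202 (7.43%) did. Of HuR replicate 1, 51.6% (50.4% to 52.8%) shared at least 1 bp on the same strand with a group of any slice, and of HuR replicate 2, 24.1% (23.8% to 24.4%). G20, with the most groups, overlapped 37.7% and 17.4% of the clusters of the HuR replicates, G45 overlapped 26.2% and 8.34%, and G35 overlapped 19.9% and 6.06%. Counting only background groups of at least 5 reads lowered the shares to 24.8% and 7.84%. The overlapping clusters held 69.7% of the 3'UTR cluster reads of HuR replicate 1 and 52.2% of those of HuR replicate 2.

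HuR clusters with and without a background group were both U-rich and differed in G. In HuR replicate 1, mean T content was 42.8% with and 40.6% without overlap, and GGGG was in 13.3% and 5.30% of their windows. In HuR replicate 2, T content was 37.1% and 39.6%, and GGGG was in 19.4% and 6.997%. UUUUU was in 39.3% against 26.7% of the windows in HuR replicate 1 and in 30.9% against 28.6% in HuR replicate 2. The conversion rates of both kinds were close, at 10.2% and 10.8% of T readings in HuR replicate 1 and 9.34% and 10.7% in HuR replicate 2.

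Seen from the slices, 53.9% of the 3'UTR clusters of G20, 59.96% of G35 and 73.2% of G45 overlapped a 3'UTR cluster of HuR replicate 2. Those that did were richer in UUUUU than those that did not, with 19.2% against 1.99% of windows in G20, 40.2% against 10.04% in G35 and 54.0% against 13.3% in G45. Their T content was also higher, at 29.1% against 20.5%, 40.5% against 28.4% and 47.2% against 31.9%. GGGG was in 43.8% and 49.0% of the windows of G20 in the same order, so G-rich clusters of G20 were in both parts. HuR replicate 2 has the most clusters, and these overlaps depend on its depth.

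Merged across the 5 libraries, the clusters formed 75183 regions. Of these, 64275 (85.5%) were clusters in HuR replicate 2 alone, 5459 in both HuR replicates, 4322 in both HuR replicates and no slice, 2587 in slices only, and 130 in all 5 libraries. The 2348 regions that were clusters in both HuR replicates and had no read in any slice held a median of 7 reads in HuR replicate 1, 45 in HuR replicate 2 and 11 in Total. Total reads lay in 88.3% of these regions and in 65.0% of the regions of slices only. Over all 75183 regions the share was 57.6%, and in those of HuR replicate 2 alone it was 53.5%.

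The 130 regions shared by all 5 libraries took 20.7% of the 3'UTR cluster reads of G20, 35.2% of G35, 34.5% of G45, 24.7% of HuR replicate 1 and 6.68% of HuR replicate 2. The most-read cluster of every slice is such a site and lies in ADRB1, which encodes the beta-1 adrenergic receptor, at chr10:115805666-115805685 on the plus strand in G45. It held 3432 reads in G20, 6395 in G35, 7138 in G45, 7082 in HuR replicate 1, 5488 in HuR replicate 2 and 3 in Total. The site in the annotated 3'UTR of DROSHA, the nuclear microRNA-processing nuclease, at chr5:31400771-31400791 on the minus strand, held 2279, 5935, 4185, 1309, 3179 and 2 reads in the same order. The sites of GNB1L, a WD-repeat protein, and of TTC8, a subunit of the BBSome at the cilium, were not clusters in all 5 libraries but were among the 3 most-read clusters of G20 and G45, and of G35. They held 1516 to 4280 and 1423 to 2789 reads in the slices and 2 and 11 in Total. In HuR replicates 1 and 2, the GNB1L site held 3082 and 1785 reads and the TTC8 site 501 and 1801. In the slices that ranked them, these clusters had 1 conversion location. The table of HuR replicate 1 lists no cluster with a single location, and neither gene had a 3'UTR cluster in it. In HuR replicate 1, the ADRB1 cluster had the most reads, followed by a site of the receptor gene GPR27 (4089 reads, against 54 to 116 in the slices, 92 in HuR replicate 2 and 0 in Total). These sites were thus deep in at least 1 PAR-CLIP library and held at most 11 reads in Total, where the median 3'UTR cluster had 15, and the origin of their reads was not tested. They may come from RNA other than the mRNAs of these genes, so their values state only where the reads were mapped. In HuR replicate 2 the 2 clusters with more reads than ADRB1 were long ones, of 233 nt in ZNF703 with 8299 reads and of 131 nt in PAFAH1B2 with 7114 reads, with 916 and 15 reads in Total.

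Without the sites found in all 5 libraries, T content was 24.0%, 35.1% and 42.7% in the slices and 41.6% and 39.0% in HuR, and events per 100 reads were 38.3, 97.1 and 75.5 in the slices and 93.7 and 101 in HuR. The orders of the libraries by T content and UUUUU stayed as they were. In events per 100 reads, G35 stayed above HuR replicate 1.

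The 3'UTR clusters lay in 1706 genes in G20, 1959 in G35, 1399 in G45, 2248 in HuR replicate 1 and 8780 in HuR replicate 2, by the authors' gene names. Of the genes of HuR replicate 1, 2239 (99.6%) had a 3'UTR cluster in HuR replicate 2, which is 25.5% of the genes of the latter. Of the 3449 genes of any slice, 88.3% were among those of HuR replicate 2 and 41.2% among the 2239 of both replicates. Of these 2239, 63.5% had a 3'UTR cluster in at least 1 slice and 14.2% in all 3. A single cluster per gene was the rule in the slices, with 67.4% of genes in G20, 75.2% in G35 and 80.1% in G45, against 47.9% and 22.1% in HuR replicates 1 and 2. The most clusters in a gene were 16 in LMNB2 in G20, 8 in ZNF703 in G45, 46 in NUCKS1 in HuR replicate 1 and 134 in ZNF207 in HuR replicate 2.

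The genes with the largest shares of 3'UTR cluster reads in both HuR replicates were NUCKS1, ZNF703, DDX17, PAFAH1B2, KLHL15, TMPO, TMED2, RLIM, SRSF1 and UHMK1, ranked by the lower of the 2 shares. These genes were chosen for these reads, so their levels are a description. Levels are given in 3'UTR RPM, the reads of a gene's 3'UTR scaled to all 3'UTR reads of the library. NUCKS1, which encodes a chromatin protein of DNA repair, held 2091 in G20, 1611 in G35, 1984 in G45, 3616 and 3679 in HuR replicates 1 and 2, and 2729 in Total. DDX17, a DEAD-box RNA helicase, held 1078, 1382 and 1924 in the slices, 3110 and 4004 in HuR and 842 in Total. Both were higher in HuR than in each slice. KLHL15, an adaptor of a ubiquitin ligase, held 215, 652 and 1224 in the slices and 1936 and 2490 in HuR, against 1100 in Total. The splicing factor SRSF1 held 890, 960 and 802 in the slices and 1890 and 2080 in HuR, but 2461 in Total, above both. PAFAH1B2, a subunit of an acetylhydrolase, is the exception among the 10 on this scale, since its 1259 in HuR replicate 1 lay below G35 (1717) and G45 (2515). Per length, DDX17 had 13.6 clusters per kb of annotated 3'UTR in HuR replicate 1 and 13.2 in HuR replicate 2, against 2.40 to 3.60 in the slices, and NUCKS1 had 8.42 and 11.7 against 1.28 to 2.75.

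The 10 genes that led in the slices, ranked by the lowest of the 3 shares, were ADRB1, DROSHA, GNB1L, ARL6IP6, TTC8, KIAA0930, ATP2C1, STK24, CYFIP2 and EDEM3. Each had a single 3'UTR cluster in G20, and as above their values state where reads were mapped, not levels of these mRNAs. ADRB1 held 18410, 56310 and 60250 3'UTR RPM in G20, G35 and G45, 23280 and 1917 in HuR replicates 1 and 2, and 1.93 in Total. STK24, a serine/threonine kinase, held 4252, 3320 and 13600 in the slices, 378 and 519 in HuR and 164 in Total. EDEM3, a mannosidase-like protein of the endoplasmic reticulum, held 1142, 4993 and 3140, then 441 and 331, and 176 in Total. CYFIP2, a subunit of the WAVE complex, was alone among the 10 in lying above all slices (1867 to 9757) in HuR replicate 1, at 13920. In all 10, Total was below every PAR-CLIP library.

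**Figure D4:**
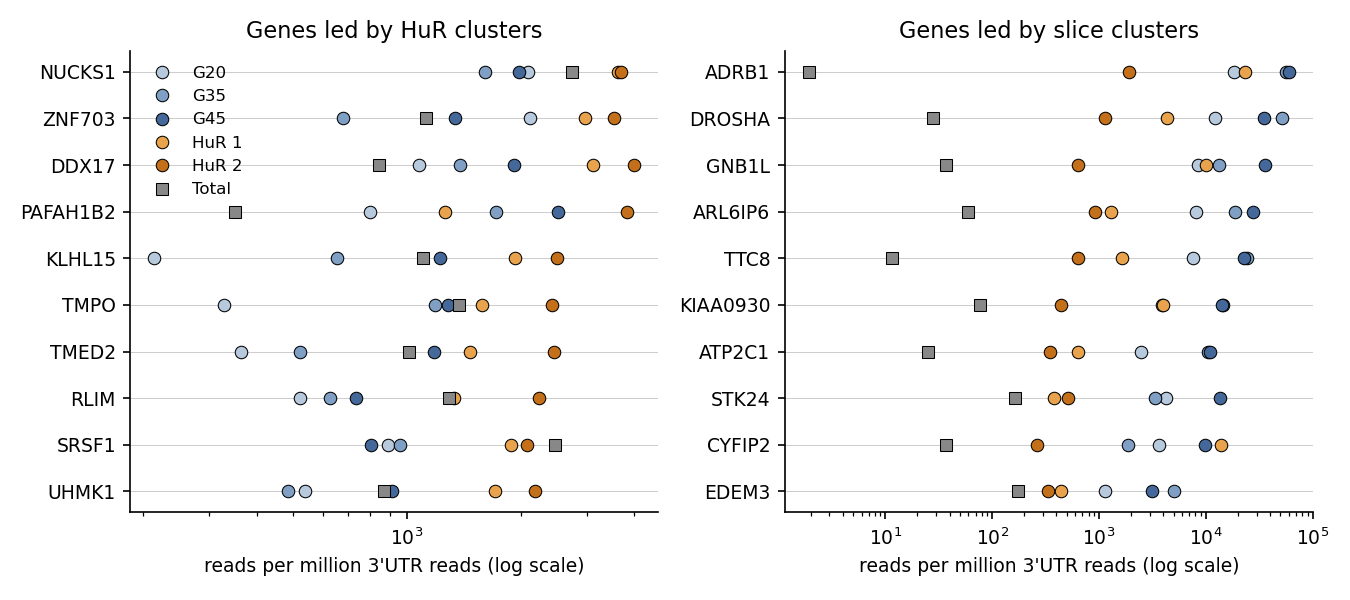
3'UTR RPM, on a log scale, for the 10 genes that lead the HuR libraries (left) and the 10 that lead the slices (right). Circles are PAR-CLIP libraries and squares are Total. On the left HuR replicate 2 lies to the right of all slices for every gene, and on the right Total lies far to the left, down to 1.93 for ADRB1.

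Reads of the group tables were summed per gene and region, and the 27457 gene regions that passed edgeR's filter on low counts were fitted together, with both HuR libraries against the 3 slices. The filter kept 5072 of the 14564 3'UTRs with a read, and a 3'UTR could pass through the group in which it is high, so the counts describe the fit only. The edgeR quasi-likelihood test with Benjamini-Hochberg adjustment called 39 3'UTRs higher in HuR (0.769%) and 46 lower (0.907%). Over all gene regions it called 0.812% higher and 5.22% lower. The 3'UTR thus had the background's share of higher calls and fewer lower calls, while 759 of 2975 coding regions were lower. The values of both HuR libraries lay above all slices for 35.4% of the 3'UTRs and below for 6.51%, against 30.2% and 19.8% of all gene regions. At an unadjusted p under 0.05, 15.7% of the 3'UTRs were higher and 4.73% lower, against 14.3% and 15.2% of all gene regions. With DESeq2, 222 3'UTRs were called higher (4.38%) and 221 lower (4.36%), against 5.86% and 14.5% of all gene regions. With library totals in place of TMM factors, the split was 702 (13.8%) and 0, against 7.01% and 0.135%. Without G20 no 3'UTR was called in either direction (754 and 177 at an unadjusted p under 0.05), nor any other gene region. The TMM factor of G20 was 0.158, those of G35 and G45 were 1.12 and 1.03, and those of HuR were 2.32 and 2.36.

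The median log2 fold change of HuR over the slices was 1.05 for 3'UTRs, 0.42 for introns, -1.45 for 5'UTRs and -3.56 for coding regions, beside 0.32 for all. The 3'UTR median was therefore 0.73 above that of all gene regions. The difference within a gene was also taken. In 1628 genes with both regions in the fit, the 3'UTR exceeded the coding region by a median of 3.85 on the log2 scale, and it did so in 97.5% of them. A 3'UTR can enter the fit through HuR and a coding region through the slices, so this describes the fit only. Without the filter the median was 2.96 and 82.3% of genes were higher, and with library totals they were 3.51 and 96.2%. In genes with at least 20 reads in the 3'UTR and coding region together, the median share in the 3'UTR was 25% (G20), 48.2% (G35) and 51.2% (G45) in the slices, 90.0% in HuR replicate 1 and 89.5% in HuR replicate 2, and 44.2% in Total. These genes were chosen in each library on its own, so the medians cover different genes. They numbered 6415 in G20, 1921 in G35, 1924 in G45, 4036 and 9014 in HuR replicates 1 and 2, and 11018 in Total.

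**Figure D5:**
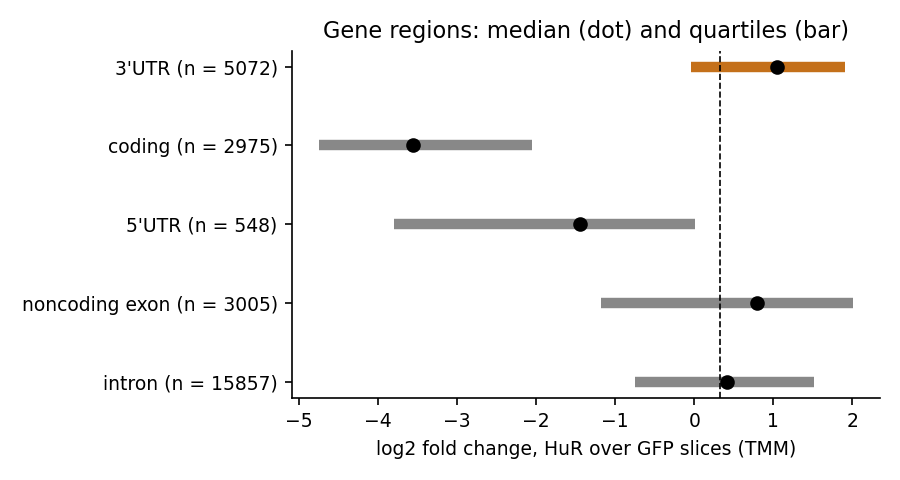
log2 fold change of HuR over the GFP slices by kind of gene region, with TMM scaling. Dots are medians and bars span the quartiles over the gene regions in the fit, and the dashed line is the median of all regions at 0.32. The 3'UTR median of 1.05 lies to the right of the line and the coding median of -3.56 far to the left.

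The 10 3'UTRs with the largest rise were those of LARP1B, UTP11, STXBP5, RAD51C, EXOC6, TGDS, RRH, PSMA2, IMPA1 and BMPR1A. The first 7 had no read in any slice, so they passed the filter through the HuR reads alone. Their folds and adjusted p-values follow from that and describe the fit only. The folds pool both HuR libraries and are not lower bounds for each replicate. DESeq2 gave no adjusted p for RAD51C, EXOC6, TGDS and RRH. LARP1B, a La-related RNA-binding protein, held 33 and 340 reads in HuR replicates 1 and 2 and 66 in Total, at least 20.9-fold higher, after TMM scaling, than a floor of 3 counts over the slices (edgeR adjusted p = 0.0414). UTP11, a ribosome biogenesis factor, held 18 and 406 reads, at least 23.7-fold higher (edgeR adjusted p = 0.0440). The DNA repair gene RAD51C held 31 and 238 reads, at least 15.1-fold higher (edgeR adjusted p = 0.0453). RRH shares 3'UTR sequence on its strand with LRIT3, and PSMA2 with a readthrough gene, so their reads cannot be assigned for certain. The annotated 3'UTR parts of LARP1B, EXOC6, STXBP5 and RAD51C are spread over long stretches, from 129028555 to 129133143 on chromosome 4 for LARP1B. A 3'UTR part of any isoform counted as 3'UTR, also where it lies in an intron of a longer isoform. How many of these reads came from introns was not tested. The proteasome subunit PSMA2 held 1, 0 and 0 reads in the slices and 38 and 528 in HuR (log2 fold change 6.08, SE 1.47, edgeR adjusted p = 0.0411). BMPR1A, a receptor of bone morphogenetic proteins, held 1, 0 and 0 reads, then 19 and 414 (log2 fold change 5.59, SE 1.54, edgeR adjusted p = 0.0482). All 85 calls had adjusted p-values between 0.0411 and 0.0499, just under the threshold.

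The 10 3'UTRs with the largest fall were those of GAPDH, REEP2, RPS2, DEFB124, PKM, LCAT, P2RY11, CDT1, CAPNS1 and AMH. The glycolytic enzyme GAPDH held 213 reads in G20, 6 in G35, 13 in G45, 1 and 2 in HuR and 73 in Total (log2 fold change -8.33, SE 1.78, edgeR adjusted p = 0.0411). PKM, the pyruvate kinase of the same pathway, held 652, 36 and 25 in the slices, 9 and 44 in HuR and 1214 in Total (log2 fold change -6.18, SE 1.43, edgeR adjusted p = 0.0411). RPS2, a protein of the small ribosomal subunit, held 195, 12 and 23, then 3 and 9 (log2 fold change -6.49, SE 1.41, edgeR adjusted p = 0.0411). In these 3 genes G20 held most of the slice reads. DEFB124 and LCAT were instead led by G35, with 109 of 148 and 73 of 89 slice reads. GAPDH and RPS2 have processed pseudogenes, and the 3'UTR of RPS2 overlaps the gene SNORA10 on its strand. P2RY11 shares its 3'UTR with a readthrough transcript. The counts of these genes are therefore uncertain.

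Genes of 4 lists were then followed, among which ELAVL1, ACTB and NCL each stand in 2 lists. As a base for the counts below, 8780 genes had a 3'UTR cluster in HuR replicate 2 and 2248 in HuR replicate 1. In G20, G35 and G45 there were 1706, 1959 and 1399. By GENCODE, 12590 and 11397 genes had any 3'UTR read in HuR replicates 2 and 1, and 10246, 5625 and 6683 in the slices. Of 25 HuR targets of the textbooks, 24 had a 3'UTR cluster in HuR replicate 2, 16 in HuR replicate 1 and 9, 12 and 10 in G20, G35 and G45. In the fit 21 were tested. The edgeR test called 0 in either direction, as did DESeq2, and 4 were higher and 0 lower at an unadjusted p under 0.05, where 14.3% and 15.2% of all gene regions were. Their median log2 fold change was 1.36 beside 1.05 for all 3'UTRs. Both HuR values lay above all slices for 8 of the 21 and below for 1. This held for 35.4% and 6.51% of all 3'UTRs in the fit, and for 30.2% and 19.8% of all gene regions. ELAVL1, the mRNA of HuR itself, had 6 and 40 clusters in the HuR replicates and 2, 1 and 0 in the slices. Its 3'UTR held 677 and 696 3'UTR RPM in HuR against 158 to 198 in the slices and 204 in Total (log2 fold change 1.99, SE 0.738, edgeR adjusted p = 0.0946). XIAP, an inhibitor of apoptosis, held 608 and 904 against 161 to 423. The groups of both genes did not overlap. HIF1A, the hypoxia factor, held 181 and 283 against 5.36 to 84.4. CDKN1A, an inhibitor of the cell cycle, was the gene below all slices on the TMM scale (log2 fold change -1.17, SE 1.05, edgeR adjusted p = 0.473). It held 42.7 and 31.4 3'UTR RPM in HuR against 79.2 to 91.2. MYC had no 3'UTR cluster outside HuR replicate 2, where it had 4. In 3'UTR RPM, JUN and VEGFA were also lower in HuR than in each slice, although their groups overlapped on the TMM scale. JUN held 82.2 and 196 in HuR against 236 to 1088 (log2 fold change -1.84, SE 1.00, edgeR adjusted p = 0.236). VEGFA held 88.8 and 156 against 169 to 247 (log2 fold change -0.548, SE 0.919, edgeR adjusted p = 0.720).

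Of 14 genes for AU-rich element binding proteins, 13 had a 3'UTR cluster in HuR replicate 2, 10 in HuR replicate 1 and 7, 9 and 4 in the slices. In the edgeR fit 11 were tested and 0 called, 4 were higher and 0 lower at an unadjusted p under 0.05, and DESeq2 called 1 higher, where 14.3% and 15.2% of all gene regions and 5.86% by DESeq2 were. Their median log2 fold change was 1.53, and HuR lay above all slices for 6 of the 11 and below for 0. Of all 3'UTRs in the fit 35.4% lay above and 6.51% below, and of all gene regions 30.2% and 19.8%. HNRNPD, or AUF1, held 490 and 368 3'UTR RPM in HuR and 26.4 to 107 in the slices (log2 fold change 2.81, SE 0.940, edgeR adjusted p = 0.0727). TIAL1 held 542 and 451 against 59.0 to 194. KHSRP, a decay factor, held 1552 and 2024 in HuR and 1145 to 3142 in the slices, which overlapped.

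Of 25 genes for deadenylation, decapping and silencing, 23 had a 3'UTR cluster in HuR replicate 2, 10 in HuR replicate 1 and 5, 5 and 4 in the slices, with 0 of 21 tested called by edgeR and a median log2 fold change of 1.81. Of the 21, 7 were higher and 0 lower at an unadjusted p under 0.05, and DESeq2 called 1 higher, against the same shares of all gene regions. CNOT6, a deadenylase, held 579 and 680 3'UTR RPM in HuR against 101 to 161 in the slices (log2 fold change 2.32, SE 0.779, edgeR adjusted p = 0.0736), and the decapping enzyme DCP2 held 592 and 725 against 159 to 257. AGO3, which had no group read in G35, held 631 and 891 in HuR, 59.0 in G20 and 355 in G45. Both HuR values were above all slices in 15 of the 21 tested, where 30.2% of all gene regions and 35.4% of the 3'UTRs in the fit met this. The decapping factor EDC3 (log2 fold change -1.44, SE 1.26, edgeR adjusted p = 0.464) and CNOT3 (-0.31, SE 1.31, edgeR adjusted p = 0.896) had negative values with overlapping groups.

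Of 20 abundant housekeeping mRNAs, 18 had a 3'UTR cluster in HuR replicate 2, 9 in HuR replicate 1 and 9, 6 and 5 in the slices. The fit tested 15 and called 0 higher and 2 lower, GAPDH and PKM (1 and 4 at an unadjusted p under 0.05, 0 and 4 by DESeq2). Over all gene regions the shares were 0.812% and 5.22% (14.3% and 15.2% unadjusted, 5.86% and 14.5% by DESeq2). Over the 3'UTRs in the fit they were 0.769% and 0.907% (15.7% and 4.73% unadjusted, 4.38% and 4.36% by DESeq2). The median log2 fold change of the list was 0.47, beside 1.05 for all 3'UTRs in the fit. HuR lay above all slices for 2 of the 15 and below for 4. This held for 35.4% and 6.51% of the 3'UTRs in the fit, and for 30.2% and 19.8% of all gene regions. The glycolytic enzyme ENO1 held 32.9 and 21.3 3'UTR RPM in HuR and 110 to 1228 in the slices (log2 fold change -4.42, SE 1.26, edgeR adjusted p = 0.0517). TUBB, a beta-tubulin, held 940 and 2585 in HuR and 591 to 976 in the slices, so HuR replicate 1 lay within the slices. The directions in these lists are relative to the TMM scale, and with library totals the median over all gene regions moves from 0.32 to 2.09.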

How the data were processed

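The tables cover 6 libraries, namely 5 of PAR-CLIP (3 GFP slices and 2 HuR replicates) and Total, made without immunoprecipitation. The authors trimmed adapters from 50-bp single reads, aligned them to hg19 with Bowtie and ran PARalyzer on unique alignments carrying at most 2 T-to-C mismatches. Each library has a deposited table of groups and a table of clusters, whose counts of reads, conversion locations and conversion events per site are raw whole numbers. Whether PCR duplicates were removed is not given in the sources used here, and copies of few fragments would raise the counts.

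By group reads, the depth was 6187300 in G35, 7539669 in G45, 9525265 in HuR replicate 1, 32111810 in HuR replicate 2, 35924998 in Total and 38644636 in G20. A floor of 3 counts is therefore at most 0.485 RPM. Overlaps required 1 shared bp on the same strand. T content is the mean over clusters. Group reads were summed by GENCODE release 44 on GRCh37 at the group midpoint, on its strand, into 3'UTR, coding, 5'UTR, noncoding exon and intron. HuR was set against the slices with edgeR 4.0.16 (quasi-likelihood test, TMM, filterByExpr, Benjamini-Hochberg over all gene regions, threshold 0.05) in R 4.3.3, with DESeq2 1.42.0 as an alternative. The fit and the overlap were tested on simulated data. The simulated counts for the fit varied less than the real ones, whose common dispersion in edgeR was 0.538. They also had the same composition in every library, so they check the code only. Library values were compared with exact permutation tests in scipy 1.17.1. Python 3.11.15, numpy 2.4.6, pandas 2.3.3, pysam 0.24.0, samtools 1.23.1 and matplotlib 3.10.9 were also used.

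Named are the 3 most-read clusters of each library, the 10 genes with the largest shares of 3'UTR cluster reads in HuR (by the lower replicate) and in the slices (by the lowest slice), the 10 3'UTRs with the largest change in each direction among those called without overlap, and genes of 4 lists. Exceptions named after their values were seen are the genes with the most clusters in all or per kb, the genes picked out of the lists and the printed clusters. The members and lists were chosen with earlier results of these data known. Alternatives were the stated cluster definition, read weighting, the location source, strand and length of overlap, read minimums, normalization, filters and each library left out. Without sites found in all 5 libraries, and without the 10 gene regions with the most reads, are alternatives added after seeing the data.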

Additional observations from a re-analysis of the deposited data

How the results depend on the processing

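HuR minus slice differences in 3'UTR share, T content, conversion events, AUUUA and the 3'UTR share of exon reads kept their sign under every alternative run, and none could pass a threshold with 2 libraries against 3. Leaving out each library in turn gave 0.174 to 11.3 percentage points for the share, 0.972 to 9.97 for T content, 13.3 to 36.4 events per 100 reads, 0.749 to 6.44 for AUUUA and 13.1 to 55.4 for exon reads. The UUUUU difference reversed to -2.90 percentage points with at least 5 reads and 2 conversion locations, and ranged from -4.42 (without G20) to 11.5 when a library was left out. The cause was not tested.

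The share of HuR replicate 1 clusters that overlap background moved from 51.6% to 49.8% with at least 50% of the cluster covered, 24.8% with groups of at least 5 reads and 50.3% without sites found in all 5 libraries. For HuR replicate 2 it moved from 24.1% to 28.3% with the stated cluster definition, 24.6% on either strand, 20.2% with 50% covered and 7.84% with groups of at least 5 reads. The 2239 shared genes stayed within 1.5 times.

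The 39 higher and 46 lower 3'UTRs became 222 and 221 with DESeq2 (35 and 46 shared with edgeR), 702 and 0 with library totals (15 lower at an unadjusted p under 0.05), 140 and 28 without a filter, and 107 and 68 with at least 50 reads. Leaving out libraries gave 0 to 436 higher and 0 to 84 lower. The lone HuR library is then assumed to vary like the slices. Without HuR replicate 2 there were 12 and 0 (170 lower at an unadjusted p under 0.05), without HuR replicate 1 436 and 26, without G35 46 and 84, and without G45 107 and 83. No paired analysis was possible because the slices carry no replicate numbers that match the HuR replicates. G35 and G45 had the fewest reads, so absence of a group there is the weakest evidence of no background.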

Other observations

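Motifs of other 3'UTR factors were rare and lay on both sides of the level of all 3'UTR tiles. UGUANAUA, the site bound by Pumilio proteins, was in 0.283% of the windows of G20, 0.701% of G35 and 0.835% of G45. It was in 0.583% of those of HuR replicate 1, 0.871% of HuR replicate 2 and 0.721% of the tiles. HuR replicate 2 thus lay above the tiles and HuR replicate 1 below. HuR and the slices overlapped (exact permutation test, two-sided, p = 0.8). The heptamer matches of the let-7, miR-16 and miR-17 seeds were each in fewer than 1% of the windows of every library. The miR-16 match was in 0.848%, 0.701% and 0.557% of the windows of G20, G35 and G45, and in 0.457% and 0.477% of those of HuR, with 0.564% in the tiles. The polyadenylation signal AAUAAA was in 1.91%, 2.77% and 2.67% of the windows of the slices, 1.61% and 3.68% of HuR replicates 1 and 2 and 5.21% of Total, against 3.58% of the tiles.

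Among genes with at least 1000 nt of annotated 3'UTR, the densest in HuR replicate 1 were DDX17 with 13.6 clusters per kb, ZNF703 with 13.4, SFPQ with 10.5 and HNRNPUL1 with 9.77. DDX17, SFPQ and HNRNPUL1 encode nuclear RNA-binding proteins. In HuR replicate 2 they had 13.2, 10.4, 11.8 and 15.5 clusters per kb, in G20 3.60, 6.68, 1.97 and 4.07, in G35 2.40, 2.97, 0.657 and 2.44, and in G45 2.40, 5.94, 1.31 and 0.814. These genes were picked by HuR replicate 1, so only the values of the other libraries are independent of the choice.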
